A study of Drosophila melanogaster with 3 samples.

Results

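The 73 genes described here encode proteins of the mitochondrial ribosome. They are the protein-coding genes of Drosophila melanogaster whose symbol begins with mRpL or mRpS in the Ensembl annotation of the dm6 build, and they make up 73 of the 13945 protein-coding genes on the main chromosome arms. Of these, 47 encode large-subunit proteins (mRpL) and 26 encode small-subunit proteins (mRpS). The assay was chromatin immunoprecipitation followed by sequencing (ChIP-seq) of Chrac-16, which carried an eGFP tag at its C-terminus and was precipitated with an antibody against GFP. All 3 samples form 1 group, and they are biological replicates. Each is whole embryos collected at ages from 0 to 24 h, males and females pooled, of a transgenic line that stably expresses the fusion. The labels give no driver for the transgene. In such a mixture, a peak present in few cells and a weak peak present in many cannot be told apart. There was no second condition, and the embryos were not sorted by tissue, so no sample of these data can be set against another genotype, stage or cell type.

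Mitochondrial ribosomes translate the few proteins that mitochondrial DNA encodes, which are core subunits of the respiratory chain and of ATP synthase. Their RNAs come from mitochondrial DNA, whereas all of their proteins come from nuclear genes and are imported, so many genes on different chromosomes have to be expressed together. Some of these proteins belong to families that bacterial ribosomes also have, and others were acquired in the mitochondrial lineage. Chrac-16 is a small histone-fold protein that pairs with Chrac-14 in the chromatin accessibility complex CHRAC, where it accompanies the nucleosome-sliding ATPase ISWI and Acf1.

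The deposited peak lists differ in stringency. An optimal list of 4941 peaks is the one that passed the irreproducible discovery rate procedure, a pooled relaxed list of 24641 peaks was called on the replicates together, and the relaxed lists of replicates 1, 2 and 3 hold 30000, 24619 and 29140 peaks. A gene was counted as having a promoter summit when the highest point of a peak lay within 500 bp of one of its annotated transcript starts. The signal of a peak is the authors' value, whose scale differs between lists. It is therefore also given as a relative signal, which is the value divided by the median of the 4941 strongest peaks of the same replicate. Peak lists hold no read counts, so the depth is unknown, and only the number of replicates (3) and of genes limits the precision that can be stated.

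Chrac-16 summits were found at a larger share of mitochondrial ribosomal protein promoters than of protein-coding promoters in general. In the optimal list 38 of the 73 genes had one (52.1%, exact 95% interval 40 to 63.9% for the count), against 22.5% of all protein-coding genes. In the pooled relaxed list 57 of 73 (78.1%) had one, against 49.7%. Among the 4941 strongest peaks of each replicate taken alone, 34 members had a summit in replicate 1, 36 in replicate 2 and 31 in replicate 3, against 22%, 21.9% and 22.4% of all protein-coding genes. The members' share was thus 46.1% ± 3.45 (SD, n = 3 replicates), against 22.1% ± 0.268 over all protein-coding genes, and the members stood above that background in each replicate. In the whole relaxed lists the counts were 61, 52 and 60, against 52.7%, 47.0% and 52.3% of all protein-coding genes. Among the strongest peaks of every replicate were 26 members (35.6%), against 17.5% of all protein-coding genes. The replicate lists also fed the procedure that gave the optimal list, so this is no independent support for its calls. No test was run on these counts, because the genes were chosen with earlier results of these data known.

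**Figure D1:**
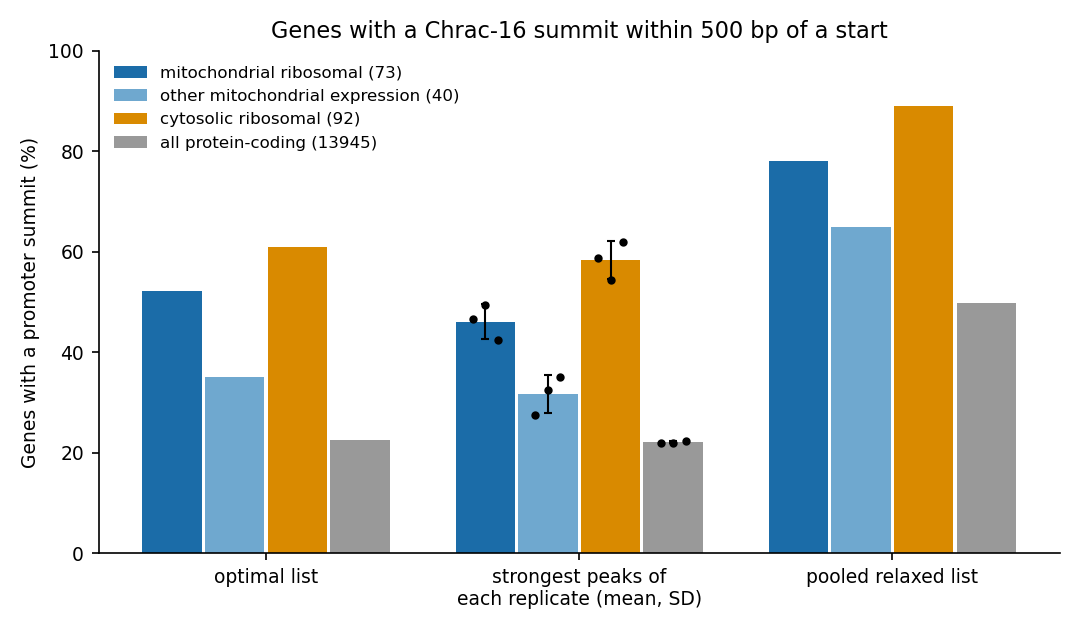
Percentage of genes with a Chrac-16 summit within 500 bp of a start in the optimal list, among the strongest peaks of each replicate (bar, mean; error bar, SD; points, the 3 replicates) and in the pooled relaxed list. The mitochondrial ribosomal bars lie above those of all protein-coding genes in each list, with 52.1% against 22.5% in the optimal list.

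In the optimal list the summits were divided about evenly over the ribosome. Large-subunit genes had an optimal summit in 25 of 47 cases (53.2%) and small-subunit genes in 13 of 26 (50%). Genes of families shared with bacterial ribosomes (mRpL numbers up to 36, mRpS numbers up to 21) had one in 22 of 42 cases (52.4%), and genes of families first named in mitochondrial ribosomes in 16 of 31 (51.6%). The median signal of the summits was 143 in large-subunit and 198 in small-subunit genes, and 185 in bacterial and 161 in mitochondrial families. These medians lie within the quartiles of the 38 members as a whole (120 and 309), as medians of large parts of a set mostly do. Other settings moved the shares in either direction. In the stronger 50% of the list, 9 of 26 small-subunit and 10 of 47 large-subunit genes had a summit, against 13.4% of all protein-coding genes. The pooled list gave 22 of 26 and 35 of 47 (against 49.7%). Summits within 250 bp of a start gave 10 of 26 and 23 of 47 (against 17.9%). These differences were not tested.

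Over the 38 genes the optimal signal had a median of 168 and ran from 101 to 2211, against a median of 198 (quartiles 136 and 325) over the 3137 protein-coding genes with an optimal summit. The median of the members was thus the lower one, and the range was wide. Of the 38, 19 (50%) fell in the weaker 50% of the optimal list, against 40.4% of all protein-coding genes with a summit, and 5 (13.2%) were at one of its 300 strongest peaks, against 9.56%.

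Set apart from the rest were 4 genes whose relative signal was at least 6.08 in every replicate, whereas none of the other 33 genes with an optimal summit and a value in all 3 replicates exceeded 3.22 in any. mRpS10, a small-subunit protein of a bacterial family, had the highest value, with 775, 706 and 743 in replicates 1, 2 and 3, a relative signal of 12.8 ± 0.709 (SD, n = 3), and the sixth strongest peak of the optimal list. Its summit at position 15229533 of chromosome arm 3R lies 132 bp upstream of its start and 125 bp upstream of the start of Art3, an arginine methyltransferase gene on the other strand. mRpS23 followed with 616, 688 and 640 (relative signal 11.2 ± 0.572). Its summit lies 378 bp upstream of its own start but 114 bp from that of CenG1A, a GTPase-activating protein gene for Arf proteins. mRpL41 had 573, 592 and 597 (10.2 ± 0.105), the closest agreement of replicates among the members. The only other start within 500 bp of its summit was that of the non-coding RNA gene lncRNA:CR44463. mRpL23, whose bacterial relative sits at the exit of the peptide tunnel, had 429, 463 and 354 (7.19 ± 0.989). Its summit lies 48 bp inside the gene and upstream of the start of CG9004, at position -98 bp from it.

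**Figure D2:**
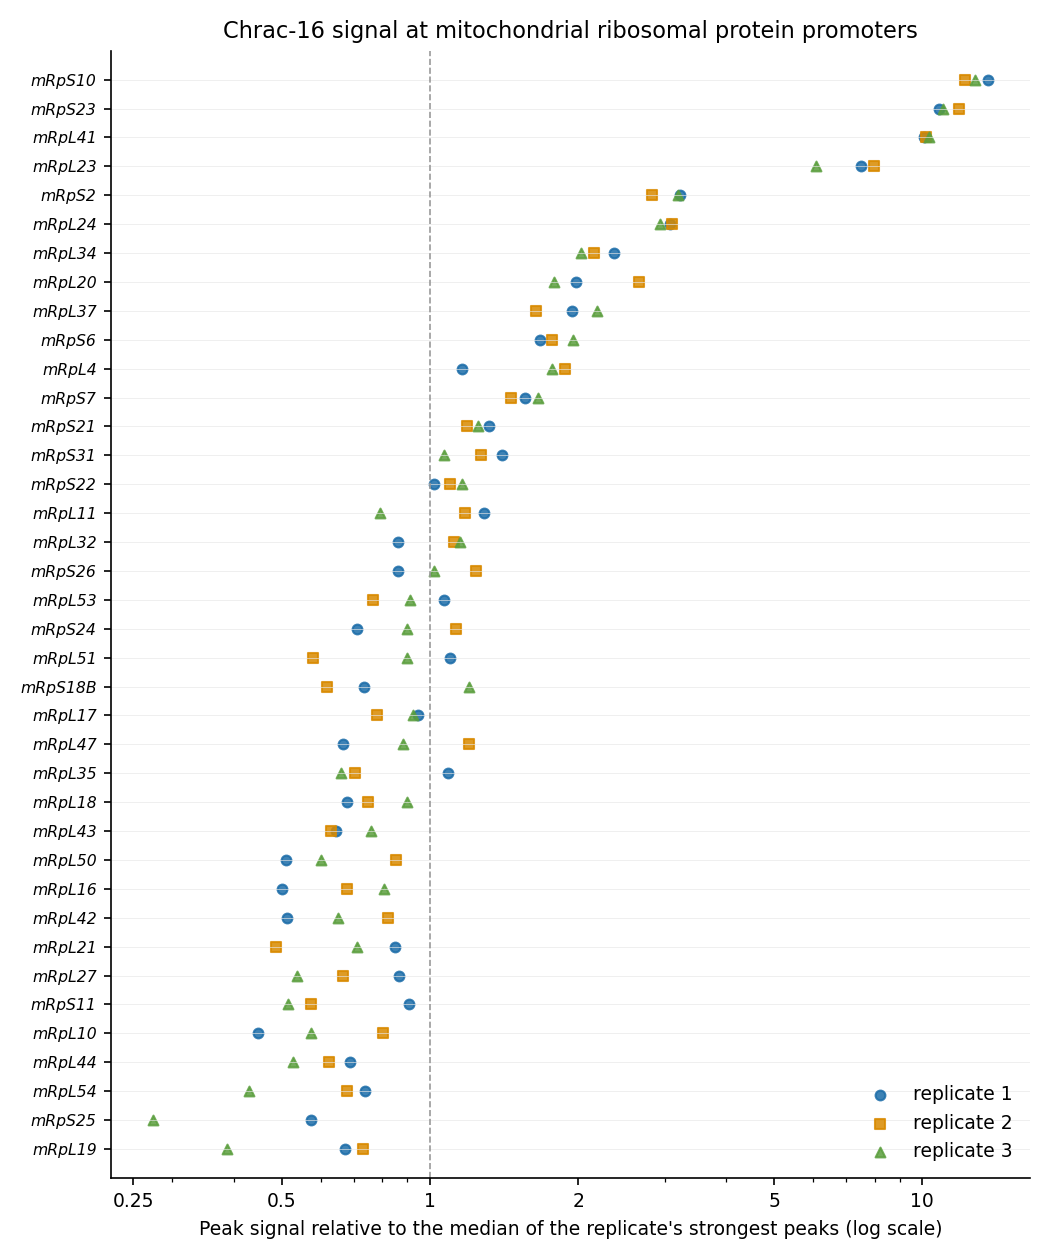
Relative signal (peak signal divided by the median of the replicate's strongest peaks, log scale) at the 38 promoters with an optimal summit, ordered by optimal signal, with a symbol for each replicate. The top 4 genes lie at 6.08 or above in every replicate, and replicates of the weaker genes scatter more widely around 1, marked by the dashed line; mRpS25 has no value in replicate 2, and its replicate 3 value is from another peak in the window.

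After a gap came mRpS2 and mRpL24, both of bacterial families. mRpS2 had 184, 164 and 186 in the 3 replicates (relative signal 3.08 ± 0.220) and shares its promoter with Mon1, which acts in endosome maturation. mRpL24 had 175, 180 and 171 (3.03 ± 0.0918) and diverges from betaggt-I, the beta subunit of geranylgeranyl transferase type I. These values differ by less than the SD of mRpS2, so the order of that pair is not resolved.

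The remaining genes among the 12 strongest were mRpL34, mRpL20, mRpL37, mRpS6, mRpL4 and mRpS7, with mean relative signals from 1.56 to 2.19. mRpL34 had 135, 125 and 118 and diverges from Dg, the gene of the matrix receptor dystroglycan. mRpL20 had 113, 154 and 104 and lies opposite Icmt, an enzyme that methylates prenylated proteins. The mRpL20 value in replicate 2 stands above the others. Its summit there lay at -331 bp, against -227 and -240 bp in replicates 1 and 3, so the value may come from another peak. The SD of the relative signal of mRpL20 (0.456) covers the difference to its neighbours in the order.

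mRpL37, of a family first named in mitochondrial ribosomes, had 111, 94.9 and 127, highest in replicate 3. mRpS6 had 95, 103 and 114 and diverges from Cip4, which bends membranes during endocytosis. mRpS7, whose bacterial relative is in the head of the small subunit, had 88.8, 84.4 and 96.7 and diverges from Cdk1, the kinase that drives entry into mitosis. Among these 12 genes mRpL4 was the one with no other start within 500 bp of its summit, and it had 65.9, 109 and 103, lowest in replicate 1.

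At the weak end, mRpL54 had 42.0, 39.3 and 25.0, and mRpL10 had 25.5, 46.5 and 33.4. mRpL19 had 38.3, 42.4 and 22.5, the lowest optimal signal of the members (101). mRpL54 and mRpL19 were lowest in replicate 3, and mRpL10 was lowest in replicate 1. mRpS25 had 32.7 in replicate 1 at position -465 bp and no promoter summit in replicate 2. Its value of 15.9 in replicate 3 belongs to another peak, with its summit at 169 bp after the start. It was the one member with an optimal summit that was not among the strongest peaks of any replicate, and its optimal summit lies 462 bp upstream of its start, toward nmdyn-D6. mRpS26 had 2 optimal summits, with a signal of 176 at position -259 bp and of 113 at -60 bp from its start. The stronger one lies 171 bp from the start of the diverging CG13698.

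The replicates agreed on the strong genes and less so on the weak ones. Over the 37 members with an optimal summit and a value in every replicate, the coefficient of variation of the relative signal had a median of 8.03% in the 19 strongest and 26.7% in the 18 weaker genes. Spearman's rho of the signal over these 37 genes was 0.733 between replicates 1 and 2, 0.817 between 1 and 3 and 0.833 between 2 and 3. Without the 4 strongest genes it was 0.623, 0.741 and 0.765. The genes share their libraries, so these correlations describe the agreement of the lists only. For mRpL35 the summits of replicates 1, 2 and 3 lay apart, at -110, -342 and -223 bp, so its values may come from different peaks. The same holds for others, such as mRpL27 (-51, -158 and -211 bp), and such values enter the coefficients of variation above.

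A further 19 members had a summit in the pooled relaxed list but not in the optimal list. Their pooled signals ran from 38.4 to 93.6, and 13 of them had a summit in every replicate's relaxed list. Members with an optimal summit had the same signal and rank in both lists. The optimal list, whose lowest signal is 99.6, thus appears to be the strongest part of the pooled list. That these 19 lie under 99.6 follows from this. The highest were mRpS16 (35.3, 31.3 and 24.8 in replicates 1, 2 and 3), mRpS18A (24.9, 37.6 and 15.7), mRpS17 (15.9, 35.2 and 34.4), mRpL9 (30.1, 21.2 and 29.3) and mRpS29 (33.2, 25.5 and 22.4), a GTP-binding protein known in mammals as DAP3. A replicate's value is that of its strongest peak in the window, and for mRpS29 the summit of replicate 3 (-54 bp) lies away from those of replicates 1 and 2 (-352 and -291 bp). None of the 19 was among the strongest peaks of all 3 replicates, and 3 were in 1 replicate.

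The other 16 members had no promoter summit in the pooled list. No list held a promoter summit for mRpL12, mRpL15, mRpL30, mRpL33, mRpS9, mRpS28, mRpS33 and mRpS34, of which mRpL12 is the relative of the bacterial stalk protein that recruits translation factors. For mRpL13, mRpL22, mRpL38, mRpL40, mRpL45, mRpL46, mRpL49 and mRpL55 a relaxed replicate list held one, with signals between 11 and 19.1. The 35 members with no optimal summit were not narrow misses of the 500 bp window: their nearest optimal summit was 1387 to 1199055 bp away (median 6394 bp).

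The promoters of these genes are mostly divergent. A protein-coding gene on the other strand started within 500 bp upstream (a head-to-head neighbour) in 53 of the 73 members (72.6%), against 27.4% of all protein-coding genes. Cytosolic ribosomal protein genes, the most similar gene set, were taken by symbol (RpLP, or RpL or RpS followed by a digit), which includes RpL7-like and RpLP0-like. Of these 92 genes, 36 (39.1%) had such a neighbour. This layout comes from the annotation and not from the ChIP. Summits were more frequent at divergent promoters in the genome as a whole: 62.3% of the 53 members with a head-to-head neighbour had an optimal summit, against 45.5% of all protein-coding genes of that layout. Without such a neighbour, 5 of 20 members had one (25.0%, exact 95% interval 8.66 to 49.1%), against 13.8%. The members with a summit numbered 38. Applied to the 53 and 20 members, the shares of all protein-coding genes by layout come to 26.9 genes with a summit, and the share without regard to layout comes to 16.4. The part that the layout plays in the members' count was not tested further.

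**Figure D3:**
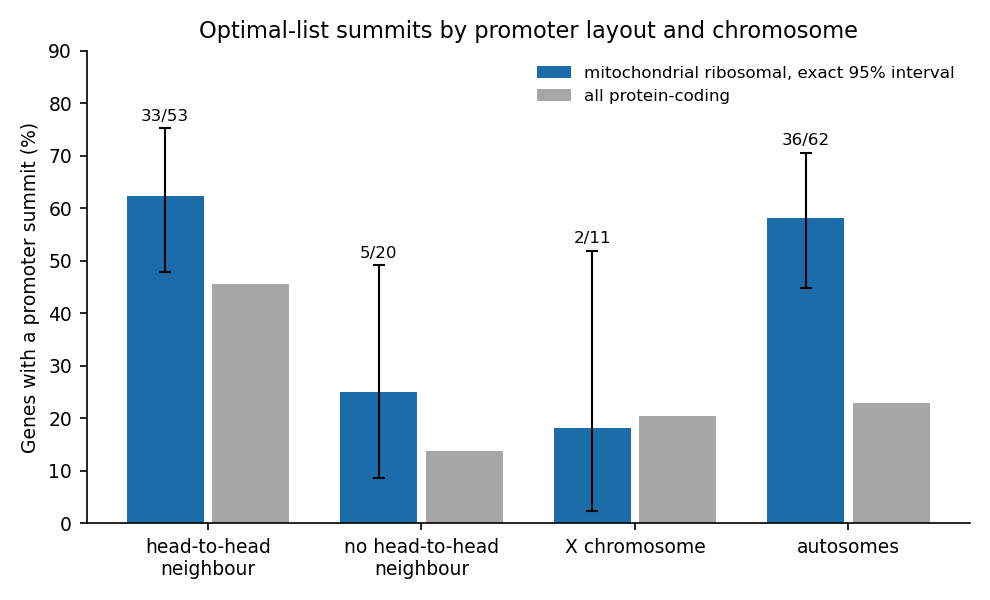
Percentage of genes with an optimal-list promoter summit among mitochondrial ribosomal protein genes (blue, with exact 95% binomial intervals and counts) and all protein-coding genes (grey), by promoter layout and by chromosome. Genes with a head-to-head neighbour had 33 of 53, genes without one 5 of 20, and the 11 genes on X had 2.

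Accordingly, most summits were shared, and the share depended on the window. Of the 38 optimal summits, 35 (92.1%) also lay within 500 bp of another gene's start, against 63.1% over all protein-coding genes with a summit and 58.9% of the 56 cytosolic ribosomal protein genes with one. At 250 bp, 24 of 33 members with a summit shared it (72.7%). With peak intervals over a start, 16 of 26 did (61.5%). The shares of all protein-coding genes at these 2 settings are not given here. In 34 of the 38 the partner was a protein-coding gene arranged head-to-head, which gave 35 pairs, since mRpL47 faces both CG8176 and Kdm3. mRpL53 faces AGO1 and also has a start in common with CG33155 on its own strand. In these pairs the starts lay 20 to 695 bp apart (median 281 bp), and the summit lay between them in 30 of 35. The summit was nearer to the partner in 23 of 35 pairs, at a median distance of 141 bp from the member's start and 114 bp from the partner's. Both partners of mRpL47 count here, at the same distance from its summit. No such counts over all head-to-head protein-coding pairs are given here, so these cannot be called particular to the members. The member's own start was the nearest of all annotated starts at its strongest summit for 16 of 38 genes (42.1%), against 69.6% over all protein-coding genes and 78.6% of the cytosolic ribosomal protein genes. Counting the second summit of mRpS26 makes this 17 genes. For most of these genes, then, a peak list annotated by nearest start names another gene and not the ribosomal one. The nearest-start shares were not matched for layout. A head-to-head neighbour was present in 86.8% of the members with a summit, against 55.3% of all protein-coding genes with a summit.

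The partners have varied roles. Some belong to mitochondria themselves: HtrA2 (with mRpL11), a protease of the intermembrane space, Taz (mRpL18), which remodels cardiolipin, and Mitofilin (mRpL35), which shapes the cristae. Others act on chromatin or RNA, such as trr (mRpL16), a histone H3 lysine 4 methyltransferase, rept (mRpL21), an ATPase of chromatin-remodelling complexes, Snr1 (mRpL44), a subunit of the Brahma remodeller, Kdm3 (mRpL47), a histone demethylase, AGO1 (mRpL53), the microRNA Argonaute, and Tudor-SN (mRpL17), a nuclease associated with RNA interference. The signals at these 9 shared summits ran from 110 at mRpL44 to 188 at mRpL11, so none of these partners lies at one of the strong peaks. These partners were picked from the 35 pairs for their known roles after the pairs were seen. From peak positions alone a summit cannot be assigned to either gene of a pair.

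**Figure D4:**
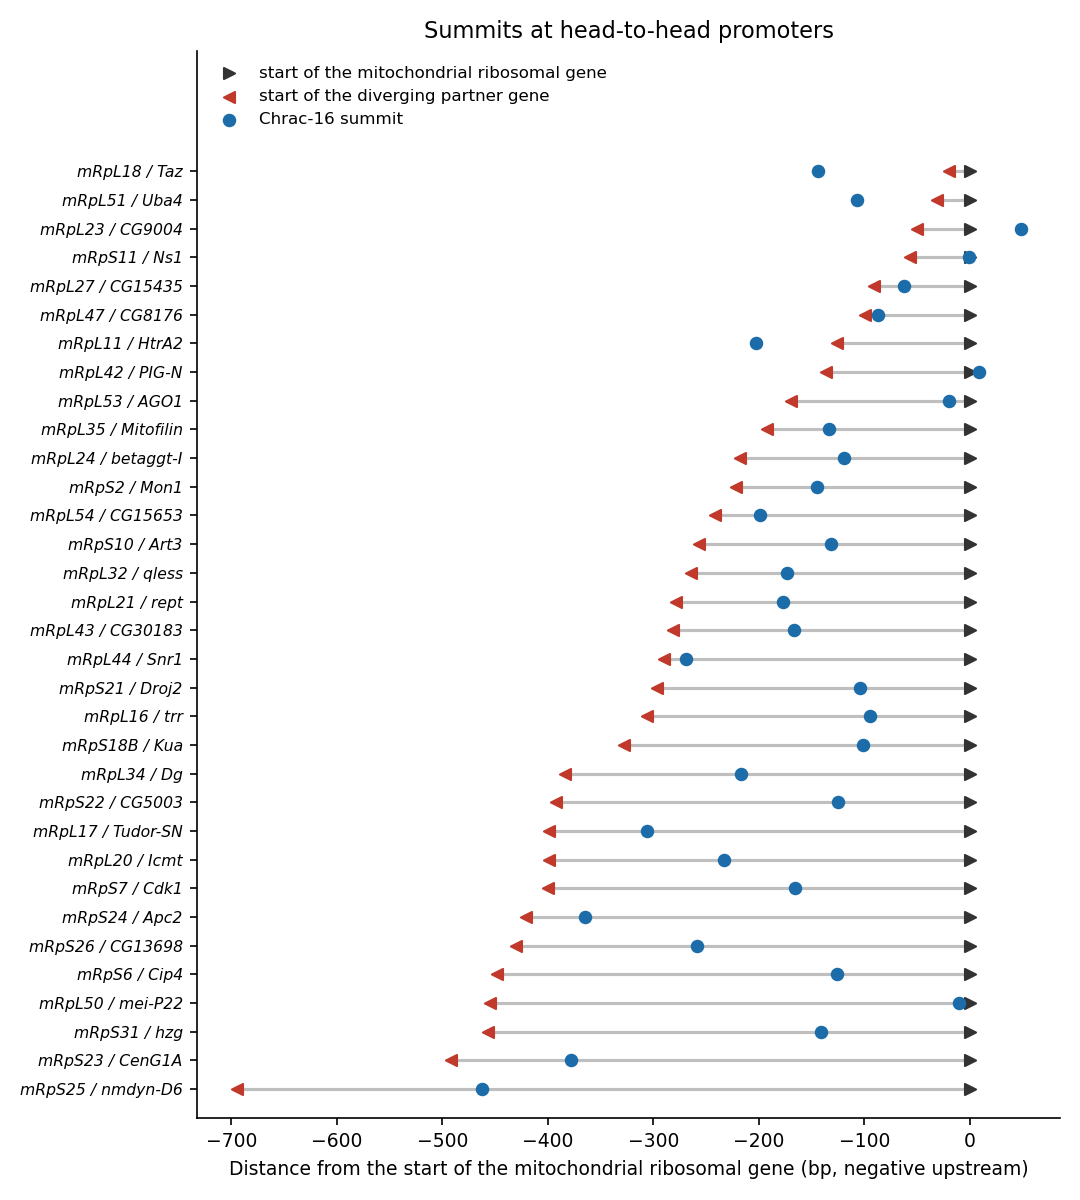
Position of the optimal summit (blue circle) between the start of the mitochondrial ribosomal protein gene (dark triangle at 0) and that of its diverging partner (red triangle), in bp, for 33 of the 34 genes with such a partner at the summit, ordered by the distance between starts; for mRpL47, CG8176 is drawn and Kdm3 starts at the same distance. Most summits lie inside the gap, and the 5 outside it (mRpL11, mRpL18, mRpL23, mRpL42 and mRpL51) belong to genes whose starts are 20 to 136 bp apart.

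To show the sequence under these summits, the stretches between diverging starts are given for the strongest promoter (mRpS10), for mRpS23, whose summit lies nearer to its partner, and for mRpS2 and mRpL24, with mRpL12 as a promoter with no summit in any list. The sequences are from the dm6 genome, on the strand of the mitochondrial ribosomal gene, which starts just after the last base unless stated, and capitals mark matches to the motifs searched. mRpS10 is chr3R:15229409-15229664 (plus strand, the whole gap to Art3), with the summit at base 125 of 256. mRpS23 is chr2L:13835301-13835563 (minus strand), the part of the 491 bp gap to CenG1A nearest to the summit, which is at base 114, and the stretch ends before the start of mRpS23. mRpS2 is chr2L:4850420-4850640 (minus strand, the gap to Mon1), with the summit at base 77 of 221. mRpL24 is chr2L:4945362-4945578 (minus strand, the gap to betaggt-I), with the summit at base 99 of 217. mRpL12 is chr3L:8956591-8956790 (plus strand), the 200 bp before its start.
mRpS10: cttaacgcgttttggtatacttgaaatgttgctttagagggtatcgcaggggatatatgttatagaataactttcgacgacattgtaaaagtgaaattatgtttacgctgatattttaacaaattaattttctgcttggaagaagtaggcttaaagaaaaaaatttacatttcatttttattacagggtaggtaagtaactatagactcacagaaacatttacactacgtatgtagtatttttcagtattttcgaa
mRpS23: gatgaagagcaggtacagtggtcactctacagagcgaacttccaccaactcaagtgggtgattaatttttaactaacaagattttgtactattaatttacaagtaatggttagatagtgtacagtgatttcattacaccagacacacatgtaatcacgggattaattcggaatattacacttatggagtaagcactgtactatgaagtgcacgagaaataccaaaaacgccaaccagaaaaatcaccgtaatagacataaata
mRpS2: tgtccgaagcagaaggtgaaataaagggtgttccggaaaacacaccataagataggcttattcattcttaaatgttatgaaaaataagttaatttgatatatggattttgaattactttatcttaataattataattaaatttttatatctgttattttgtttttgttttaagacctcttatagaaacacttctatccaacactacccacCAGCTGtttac
mRpL24: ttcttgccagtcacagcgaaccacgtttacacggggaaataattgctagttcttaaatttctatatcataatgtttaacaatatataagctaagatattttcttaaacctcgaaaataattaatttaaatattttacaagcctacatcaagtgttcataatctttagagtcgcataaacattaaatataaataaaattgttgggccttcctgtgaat
mRpL12: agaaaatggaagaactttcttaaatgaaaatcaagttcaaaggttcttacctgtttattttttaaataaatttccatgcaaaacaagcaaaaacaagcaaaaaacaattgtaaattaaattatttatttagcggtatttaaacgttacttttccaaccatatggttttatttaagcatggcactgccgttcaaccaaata

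No annotated exon overlaps any of the 5 stretches. They are rich in A and T, with a G and C content of 30.1% in mRpS10, 36.1% in mRpS23, 28.1% in mRpS2, 28.6% in mRpL24 and 27.0% in mRpL12, the promoter with no summit being the lowest of the 5. Over promoter windows from 250 bp before to 50 bp after the start, the median content was 34.7% in the members, against 38.0% in all protein-coding genes. The stretches of mRpS10 and mRpS23, the strongest 2 promoters, hold none of the motifs searched, whereas that of mRpS2 holds CAGCTG near its end, just before the mRpS2 start. Outside the stretches shown, the promoter windows of mRpS23 and mRpL12 hold a DRE (described next), the one of mRpS23 at 172.5 bp from its summit, and that of mRpL24 holds CAGCTG.

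The searched motifs were TATCGATA, the DRE bound by Dref, GGTCACAC, the core of Ohler motif 1 found in housekeeping promoters, CACGTG, the classical E-box of bHLH factors such as Myc, the related palindrome CAGCTG, which is the core of Ohler motif 5, GCATGCGC, the core of the NRF1 motif whose fly factor is ewg, CCGGAAG, an ETS core, and GAGAGAG. Each was matched exactly on both strands of the 300 bp promoter windows, and none of the 7 contains another. The most common was CAGCTG, which was in 40 of the 73 members' windows (54.8%), against 17.7% of the windows of all protein-coding genes. The DRE was in 20.5%, against 9.36%, and Ohler motif 1 in 11%, against 7.70%. CACGTG was in 6.85%, against 4.2%, and GCATGCGC in 1.37%, against 1.05%. CCGGAAG was in none of the 73 windows, against 1.09%, and GAGAGAG in 1.37%, against 5.87%. In mammals, NRF1 and ETS-type sites are known at promoters of this kind, and these exact cores were rare in the fly windows of both gene sets.

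The CAGCTG matches lay close to the transcript start. Their position was examined after the shares above were seen. Counting the first transcribed base as 1, the match nearest to the start began at a median of base 5 (quartiles -17.8 and 17.0) in the 40 members with one, against a median of -46.0 (quartiles -127 and -2.00) in the 2463 protein-coding genes with one. In 35 of 73 members (47.9%) a match lay within 50 bp of the start, against 9.30% of all protein-coding genes. The share was alike for members with a head-to-head neighbour (49.1%) and without one (45%), and alike for large-subunit (48.9%) and small-subunit genes (46.2%). In windows of 201 bp centred on the summit, 6 of the 38 members had a match (15.8%), against 11.4% of all promoter summits. In the promoter windows a match was in 57.9% of the windows of members with an optimal summit and in 51.4% of those without, and in 62.5% of those with no pooled summit.

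Starts with such a match are shown from 45 bases before to 30 bases after the start, so that base 46 of each line is the first transcribed base. First come 5 members with an optimal summit whose match fits this stretch, in order of signal, followed by 3 members with no pooled summit. The 5 are not the strongest members with such a match. The stronger mRpL41 (match at base -9, signal 1758) and mRpL23 (base -28, signal 1235) are not shown. Capitals mark CAGCTG. Stretches with more than 30 annotated exon bases were left out. On dm6, mRpS2 is chr2L:4850390-4850464 (minus strand), mRpL24 is chr2L:4945332-4945406 (minus), mRpS6 is chr3L:4364505-4364579 (plus), mRpS21 is chr3R:13381780-13381854 (minus) and mRpL11 is chr3R:14511793-14511867 (plus). Without a summit, mRpL33 is chrX:4322202-4322276 (minus), mRpL40 is chr3R:11407873-11407947 (plus) and mRpL45 is chr3R:22618447-22618521 (plus).
mRpS2: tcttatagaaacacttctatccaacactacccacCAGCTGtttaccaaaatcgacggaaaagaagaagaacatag
mRpL24: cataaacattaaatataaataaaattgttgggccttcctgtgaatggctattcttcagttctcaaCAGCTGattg
mRpS6: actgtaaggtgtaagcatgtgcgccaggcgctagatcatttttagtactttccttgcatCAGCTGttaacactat
mRpS21: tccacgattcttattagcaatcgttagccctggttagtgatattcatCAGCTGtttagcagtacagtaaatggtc
mRpL11: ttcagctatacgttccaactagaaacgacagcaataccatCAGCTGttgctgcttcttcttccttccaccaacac
mRpL33: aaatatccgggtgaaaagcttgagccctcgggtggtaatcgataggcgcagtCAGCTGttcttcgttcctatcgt
mRpL40: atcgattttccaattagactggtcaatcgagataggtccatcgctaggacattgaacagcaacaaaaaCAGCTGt
mRpL45: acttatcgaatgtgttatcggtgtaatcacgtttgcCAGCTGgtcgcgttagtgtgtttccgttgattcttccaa

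The match began at base -11 in mRpS2, 21 in mRpL24, 15 in mRpS6, 3 in mRpS21 and -5 in mRpL11, and at 8 in mRpL33, 24 in mRpL40 and -9 in mRpL45. The promoters shown have signals from 188 (mRpL11) to 548 (mRpS2) or no pooled summit. They were picked for a match inside the stretch, so their like distances follow from that choice. Other matches lay farther away, such as base -227 in mRpL51, with an optimal summit, and -60 in mRpS9, without one. A match of 6 letters is a description of the sequence and does not show that a factor binds there.

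**Figure D5:**
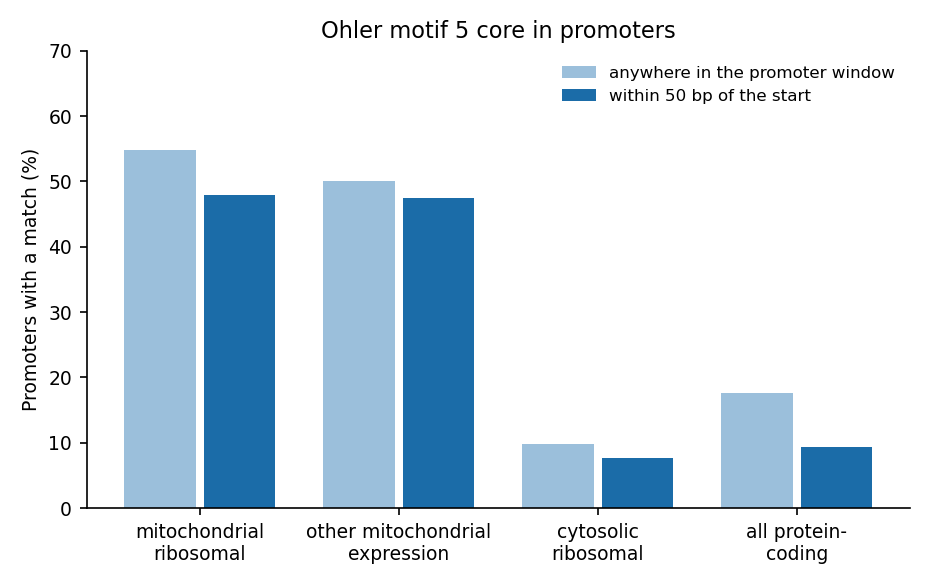
Percentage of promoters with a match to the core of Ohler motif 5, anywhere in the window from 250 bp before to 50 bp after the start (light) and within 50 bp of the start (dark). Near the start the share was 47.9% for mitochondrial ribosomal protein genes and 47.5% for other mitochondrial expression genes, against 7.61% for cytosolic ribosomal protein genes and 9.30% for all protein-coding genes.

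Genes of the same pathway were examined through a list of 41 genes for translation, transcription and replication in mitochondria, of which 40 matched the annotation. Of these, 14 (35.0%, exact 95% interval 20.6 to 51.7%) had an optimal summit, a lower share than that of the ribosomal genes, though the intervals of both overlap. The mitochondrial aminoacyl-tRNA synthetases, which charge the organelle's tRNAs, counted with their paralog Slimp, had one in 7 of 16 cases. Genes that transcribe and replicate mitochondrial DNA had one in 5 of 13, among them PolrMT, the mitochondrial RNA polymerase (145), and mtSSB, the protein that coats single-stranded mitochondrial DNA, with the highest signal of the list (581). TFAM, which packages mitochondrial DNA, had no pooled summit. Translation factors had one in 2 of 9, namely mEFTu1 (111) and mIF2 (102), a share close to the 22.5% of all protein-coding genes. The mitochondrial ribosomal genes with other symbols, tko and bonsai, had no optimal summit. The median signal of the 14 was 114, against 198 for all protein-coding genes with a summit. CAGCTG was in 20 of the 40 windows (50%), and within 50 bp of the start in 19 (47.5%).

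Cytosolic ribosomal protein genes were like the members in share, with 56 of 92 (60.9%, exact 95% interval 50.1 to 70.9%), but not in layout. Their median signal was 182, against 168 in the members. Member summits lay at a median position of -141.5 bp from the start (quartiles -202 and -101.8 bp). Of these, 36 of 38 (94.7%) were upstream, close to the 90.1% of all protein-coding genes with a summit. The share was 87.5% in the cytosolic genes. Those of cytosolic ribosomal protein genes lay at a median position of -62.5 bp, and those of all protein-coding genes at -136 bp. The medians in the strongest peaks of replicates 1, 2 and 3 were -131, -142.5 and -162 bp in the members (mean -145.2 ± 15.7, SD, n = 3), against -51.0, -73.5 and -56.0 bp in the cytosolic genes (-60.2 ± 11.8). The members' and cytosolic medians did not overlap over these replicates, whose libraries both sets share. Over all protein-coding genes the medians were -134, -137 and -136 bp, within the range of the members. The positions were not matched for layout. Where no head-to-head neighbour was present, 32 of 56 cytosolic genes (57.1%) had an optimal summit, against the 25.0% of members given above, and CAGCTG was in 9.78% of the cytosolic windows.

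Autosomal members had a summit more often than all protein-coding genes, and members on the X chromosome did not. Of the 11 genes there, 2 had one (18.2%, exact 95% interval 2.28 to 51.8%), against 20.4% of all protein-coding genes on X, while 36 of the 62 autosomal members had one (58.1%), against 22.9%. The X-linked genes with a summit were mRpL16 and mRpS25, with signals of 119 and 110 among the lowest of the members, and 5 of the 11 had no pooled summit (mRpL22, mRpL30, mRpL33, mRpL38 and mRpL49). Among members with a head-to-head neighbour, 1 of 7 had a summit on X, against 35.5% of all such protein-coding genes there. On the autosomes 32 of 46 had one, against 47.2%. Of the 14 cytosolic ribosomal protein genes on X, 10 had a summit (71.4%). The interval for 11 genes is wide, and the difference between X and autosomes was not tested.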

How the data were processed

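The samples were 3 replicate anti-GFP ChIP-seq libraries of Chrac-16-eGFP embryos. The authors deposited narrowPeak lists whose signal value per peak has no stated scale, and a summit offset. Per the listings deposited beside them, relaxed replicate and pooled lists fed the irreproducible discovery rate procedure that gave the optimal list, and a control alignment entered the calling. The sources used here do not name the caller or the aligner. The dm6 lists were used and the dm3 lists were not. The relaxed list of replicate 1 stops at exactly 30000 peaks, possibly a limit set in calling.

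Summits were placed within 500 bp of any transcript start of the Ensembl dm6 annotation, and motifs were matched exactly in the dm6 genome. Each gene took its strongest promoter peak. Values were computed with Python 3.11.15, pandas 2.3.3, numpy 2.4.6 and scipy 1.17.1 and drawn with matplotlib 3.10.9, and the assignment was tested on simulated peaks. With 1 group there was no test between samples, and gene sets are described by counts, medians and exact (Clopper-Pearson) intervals, which treat genes as independent and cover counting error only. The members and lists were chosen with earlier results of these data known. Genes named with values were the 12 strongest and 3 weakest members in the optimal list, with mRpL54, which ranked next above those 3. Also named were mRpS26 for its 2 summits, the 5 highest members found in the pooled list only, and all members with no pooled summit. Partners, genes on X, the other pathway genes and the starts shown with a motif were named beyond that rule, after their values were seen. Alternatives varied the window, the starts used, the way a peak is placed, the threshold, the overlap with replicates and the replicates kept. The partner gene of 1 member is not reported here.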

Additional observations from a re-analysis of the deposited data

How the results depend on the processing

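Over 9 results and 11 alternatives, 69 of 99 values stayed within the spread or 1.5 times of the reported one, 30 moved, and none reversed. Counts, shares and signals have no sign to reverse, so only the median position could have done so. The rule is wide: a fall from 38 to 26 members, with peak intervals over a start, counted as unchanged. The members' share stayed above that of all protein-coding genes in each alternative, from 1.57 times in the pooled list to 2.55 times with only 5′-most gene starts. Placing peaks by an interval over a start gave 8 small-subunit genes, 16 shared peaks (61.5% of those counted), a median position of -116 bp, a median signal of 142, a replicate mean of 21.7 genes and 14.6% of all protein-coding genes. The stronger 50% of the list gave 19 members, 10 of the large subunit, 9 nearest to their summit, 18 shared, a median signal of 320, a replicate mean of 19 and 13.4% of all genes. The whole pooled list gave 22 small-subunit genes, 33 nearest, a median signal of 119, a replicate mean of 57.7 and 49.7% of all genes. Requiring overlap in all 3 replicates gave 15 large-subunit genes, 11 nearest and a median signal of 206. Requiring 50% of the length gave 24 members, 14 of the large subunit, 11 nearest, 23 shared and a median signal of 206. Leaving out 1 replicate (overlap with the strongest peaks of both others) gave 28 to 30 members, 11 to 14 nearest, with 11 without replicate 2, and a median signal of 191 to 196. Beyond the construction of each alternative, the cause was not tested. No paired analysis was possible because the replicates form 1 group. Depth is unknown, the control was not analysed here, and peaks of whole embryos cannot say in which cells a promoter was occupied.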

Other observations

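In the genome at large the CAGCTG core was in 23.3% of the promoter windows of protein-coding genes with an optimal summit and 16% of those without. Of the 40 mitochondrial ribosomal protein genes with a match, 5 had 2 or more matches. The DRE was in 26.3% of the windows of members with an optimal summit and 14.3% of those without, and in 15.2% and 7.66% of the windows of all protein-coding genes with and without one. In the 201 bp windows centred on summits the DRE was in 5.26% of the members' windows, against 7.56% of the windows of all promoter summits. None of these shares was tested.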
